A study of Mus musculus with 12 samples.

Results

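Ucp1, Ppargc1a, Cox7a1, Dio2, Elovl3 and Prdm16 are a set of 6 genes that thermogenic (brown and beige) adipocytes are known for, and their levels were examined library by library in the involuting mouse mammary gland. They were matched by gene symbol among the 37754 gene models that carried a value, each member had 1 model of its own, and 4 of the 6 passed the filter on low values used for tests. The genes were picked with their levels in these libraries already known, so everything given for them is a description with no test. RNA of whole glands #2 to #5 of single-parous C57BL/6 dams was sequenced after 9 days of nursing, either at forced weaning (involution day 0) or 3 days later. JNKWT dams were Wap-Cre-/+, and JNKKO dams carried, besides Wap-Cre-/+, LoxP/LoxP alleles of Mapk8 (JNK1) and of Mapk9 (JNK2), so the Cre transgene was shared by both genotypes and the LoxP alleles were in JNKKO dams alone. Each of the 4 groups held 3 libraries, 12 in all. The Wap promoter drives Cre in milk-producing epithelium, so adipocytes, muscle and other stromal cells were not the target of the deletion. The values are FPKM as deposited, that is, fragments per length of the gene model and per number of mapped fragments of the library.

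A thermogenic adipocyte burns fatty acids and releases the energy as heat. Sympathetic nerves release noradrenaline, beta-adrenergic receptors raise cyclic AMP, protein kinase A frees fatty acids and activates the factors that transcribe Ucp1, and the UCP1 protein lets protons leak across the inner mitochondrial membrane. PRDM16 and PGC-1alpha (Ppargc1a) are transcriptional regulators of this cell state, the deiodinase encoded by Dio2 makes active thyroid hormone inside the cell, Cox7a1 encodes a cytochrome c oxidase subunit of brown fat and muscle, and Elovl3 encodes an enzyme that lengthens fatty acids. Ppargc1a and Cox7a1 are also expressed in skeletal muscle. The mammary gland lies in a fat pad whose adipocytes lose lipid during lactation and refill during involution.

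Cyclic AMP acts on DNA through the cyclic AMP response element (CRE), so the promoters that hold a match are shown here for the 3 members concerned. Of the 6 members, 5 had an entry in the RefSeq promoter table (GRCm38.p6). The 250 bases before the start are printed 5′ to 3′ on the strand of the gene, with the CRE half-site TGACG, or its reverse complement CGTCA, in capitals.
Ucp1, chr8:83290098-83290347, plus strand: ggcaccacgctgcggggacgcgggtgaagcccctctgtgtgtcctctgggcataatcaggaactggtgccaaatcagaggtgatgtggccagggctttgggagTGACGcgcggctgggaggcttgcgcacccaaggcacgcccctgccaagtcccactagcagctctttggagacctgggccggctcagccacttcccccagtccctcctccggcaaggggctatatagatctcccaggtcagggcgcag
Ppargc1a, chr5:51567726-51567975, minus strand: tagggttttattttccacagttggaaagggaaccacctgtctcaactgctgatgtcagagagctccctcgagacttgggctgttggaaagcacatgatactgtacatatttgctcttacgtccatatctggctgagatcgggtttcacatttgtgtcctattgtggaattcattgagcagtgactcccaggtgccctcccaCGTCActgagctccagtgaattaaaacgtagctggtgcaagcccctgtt
Dio2, chr12:90739039-90739288, minus strand: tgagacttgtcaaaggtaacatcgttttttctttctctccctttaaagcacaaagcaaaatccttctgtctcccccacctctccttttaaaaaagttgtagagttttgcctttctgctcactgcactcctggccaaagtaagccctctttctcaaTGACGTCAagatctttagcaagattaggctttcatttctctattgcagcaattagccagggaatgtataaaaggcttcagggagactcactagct
The half-site began 147 bases before the start of Ucp1 and 49 bases before that of Ppargc1a. Dio2 held the whole 8-base element TGACGTCA, in which 2 half-sites overlap, 95 bases before its start. Searched on both strands in the same window, the half-site was in 17.8% and the whole element in 1.55% of 32851 promoters. Cox7a1 and Prdm16 held neither. The estrogen-related receptor motif TCAAGGTCA (in 0.387% of promoters, searched on both strands) was in none of the 5 windows. A match is a run of letters and not evidence that a factor binds there.

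The libraries differed in tissue content in ways that touch the results. Adipocyte markers (14 genes, such as Adipoq and Plin1) summed to 295 to 718 FPKM in the 6 libraries of day 0, to 5088 to 11954 FPKM in JNKWT glands on day 3 and to 1583 to 4537 FPKM in JNKKO glands on day 3. Skeletal muscle markers (23 genes, such as Ckm and Myh4) summed to 14927 and 14979 FPKM in JNKWT day 3 libraries 3 and 6, against 954 FPKM in library 12 of the same group and 18.1, 22.1 and 256 FPKM in the JNKKO day 3 libraries. Muscle RNA was thus most abundant in 2 libraries of a single group. On day 0 the same sum ran from 12.7 to 1341 FPKM in JNKWT and from 58.6 to 1853 FPKM in JNKKO glands. Milk genes took 57.3% to 77.1% of the summed FPKM on day 0. On day 3 they took 1.73% to 6.41% in JNKWT and 9.12% to 39.9% in JNKKO glands. The summed FPKM includes antigen receptor segments, which took 11.02% to 27.3% of it on day 0. On day 3 these segments took 66.04% to 73.95% in JNKWT and 28.4% to 72.7% in JNKKO glands, so the milk percentages depend on them too. Milk genes alone summed to 43685.5 to 115179 FPKM in JNKWT and 240492 to 480907 FPKM in JNKKO glands on day 3. The median gene was higher on day 3 than on day 0 by 2.37 on the log2 scale in JNKWT and by 1.68 in JNKKO glands. JNKWT day 0 library 1 had the lowest value of all 12 libraries for 55.6% of the 14512 genes tested. Mapk8 was at 6.57 to 7.90 FPKM in JNKWT and 1.25 to 3.57 FPKM in JNKKO glands on day 3, and Mapk9 at 16.1 to 18.1 and 5.26 to 10.5 FPKM, while on day 0 the libraries of the genotypes overlapped for both genes. In whole glands, fewer cells of a type and less RNA per cell cannot be told apart.

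Ucp1, the gene that defines the thermogenic adipocyte, was close to absent from 11 of the 12 libraries and clearly present in 1. Its model lies at chr8:83290348-83298456 (GRCm38). In JNKWT day 3 glands it was at 13.1 FPKM in library 3, 0.160 FPKM in library 6 and 0.0983 FPKM in library 12. In JNKKO day 3 glands it was at 0, 0.0603 and 0.0217 FPKM in libraries 3, 4 and 6. On day 0 only JNKWT library 1 held any, at 0.0405 FPKM, and the other 5 libraries were listed at 0. The mean of JNKWT glands on day 3 was 4.44 FPKM ± 7.48 (SD, n = 3), so it rests on library 3. Ucp1 passed the 0.5 FPKM minimum in that library alone and entered no test.

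The same 13.1 FPKM stood out within its own library. Ranked were 10688 protein-coding genes with at least 1 FPKM in JNKWT day 3 library 3, which left out Elovl3. Among them Ucp1 had the largest excess of that library over the highest of the other 11 libraries. The excess was 5.66 on the log2(FPKM + 0.1) scale, in a comparison chosen after the values of Ucp1 were seen. The next gene, Nog, which encodes a secreted inhibitor of bone morphogenetic proteins, had an excess of 1.60, with 1.18 FPKM against 0.321 FPKM. Elovl6, a fatty acid elongase, stood at rank 5 with 21.0 FPKM against 8.31 FPKM. Dio2 and Ppargc1a were at ranks 14 and 20, Cox7a1 and Prdm16 at ranks 997 and 5133. Elovl3, not ranked, was at 0.572 FPKM against 0.129 FPKM. Library 3 thus led in Ucp1 far more than in any other member. The muscle sum of library 3 was close to that of library 6, with a median ratio of 1.09 over the muscle markers. Single markers differed more, such as Myh2, at rank 6 with 46.6 FPKM against 19.0 FPKM. Adipocyte markers were highest in library 12 for 13 of the 14 genes, where Ucp1 was at 0.0983 FPKM.

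Prdm16, the transcriptional regulator that directs precursors toward the brown fat fate, was the steadiest member within JNKWT glands on day 3. Its model spans chr4:154316125-154636873 and shares that span with 3 models of non-coding transcripts or predicted genes. JNKWT day 3 libraries 3, 6 and 12 held 2.55, 3.15 and 2.39 FPKM, although the muscle sum was 14927 and 14979 FPKM in the first and second of them and 954 FPKM in the last. The JNKKO day 3 libraries held 0.789, 0.611 and 0.948 FPKM, all below every JNKWT library of that day. On day 0 the values were 0.0428, 0.251 and 0.268 FPKM in JNKWT and 0.301, 0.391 and 0.188 FPKM in JNKKO glands, and the genotypes overlapped. The lowest of these came from JNKWT day 0 library 1. Prdm16 reached the 0.5 FPKM of the filter on day 3 only, so it had to be higher there. On the log2(FPKM + 0.1) scale, which understates changes of low genes, day 3 was above day 0 by 3.40 ± 0.40 (SE of the fit) in JNKWT and by 1.18 ± 0.40 in JNKKO glands. JNKKO minus JNKWT on day 3 was -1.67 ± 0.40. With only library 12 left in JNKWT day 3, an alternative chosen after seeing the data, it was -1.51. Set against the shift of the median gene, the JNKKO change lay 0.49 below it (difference minus median -0.49) and the JNKWT change 1.03 above it.

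Ppargc1a, the coactivator that drives mitochondrial biogenesis in brown fat and muscle, was at or below 0.180 FPKM in 9 of the 12 libraries. Its model lies at chr5:51454249-51567725. JNKWT day 3 libraries 3, 6 and 12 held 7.31, 3.71 and 0.522 FPKM, and the JNKKO day 3 libraries 0.0379, 0.0639 and 0.0795 FPKM. On day 0 it was at 0.0450, 0.0887 and 0.0168 FPKM in JNKWT and at 0.0858, 0.0725 and 0.180 FPKM in JNKKO glands. Every JNKWT day 3 library was above every other library, and the 2 highest were those with abundant muscle. Ppargc1a passed the filter only through JNKWT day 3, so it had to differ there. The log2 difference was 4.14 ± 0.69 for day 3 minus day 0 in JNKWT glands, -0.38 ± 0.69 in JNKKO glands and -4.03 ± 0.69 for JNKKO minus JNKWT on day 3. Without libraries 3 and 6 the day 3 genotype difference was -1.96. Library 12 had a muscle sum of 954 FPKM and held 0.522 FPKM of Ppargc1a, while JNKKO day 0 library 3, with a muscle sum of 1853 FPKM, held 0.180 FPKM and JNKWT day 0 library 1, with 1341 FPKM, held 0.0450 FPKM.

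Cox7a1, the cytochrome c oxidase subunit of muscle and brown fat, was the only member above 1 FPKM in all 12 libraries. Its model lies at chr7:30184171-30186028. JNKWT day 3 libraries 3 and 6 held 96.5 and 89.4 FPKM and library 12 held 9.61 FPKM. The JNKKO day 3 libraries held 1.17, 4.04 and 5.05 FPKM. On day 0 it was at 26.2, 3.90 and 2.97 FPKM in JNKWT and at 2.50, 4.20 and 15.2 FPKM in JNKKO glands, so that day 0 library 1 of JNKWT lay above day 3 library 12. The 4 libraries with the highest Cox7a1 were also the 4 with the highest muscle sum, and library 12 was the fifth by both measures. In JNKWT glands day 3 minus day 0 was 2.67 ± 1.03 on the log2 scale, close to the 2.37 of the median gene, and 0.50 without libraries 3 and 6. JNKKO minus JNKWT on day 3 was -3.86 ± 1.03, and -1.69 without those libraries. Muscle markers themselves were lower in JNKKO glands on day 3 for 18 of 20 tested, with a median log2 difference of -7.17, against 5.62% of all genes. None of the 20 was called with median ratio scaling, where the median was -6.48. Their part in the Cox7a1 and Ppargc1a values was not tested.

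**Figure D1:**
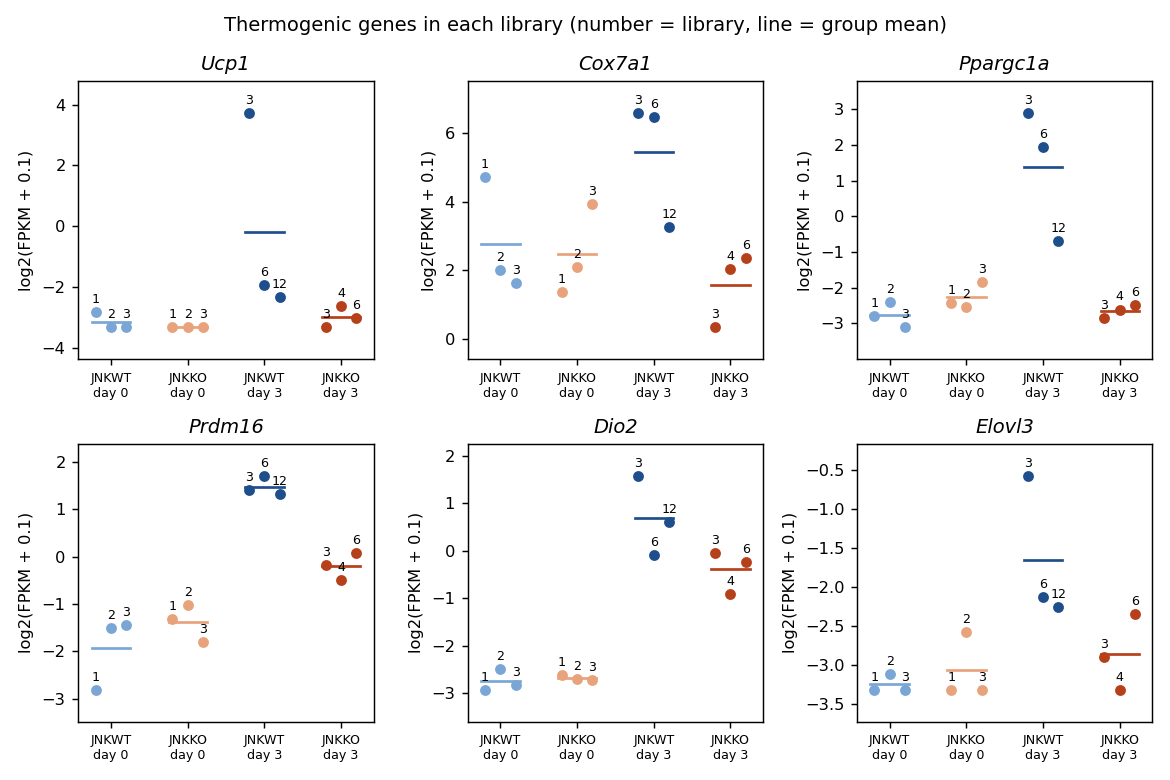
The 6 genes in each of the 12 libraries, as log2(FPKM + 0.1) on the vertical axis, with the 4 groups on the horizontal axis, the library number above each point and the group mean as a line. Ucp1 stands out only in JNKWT day 3 library 3 (13.1 FPKM), Cox7a1 and Ppargc1a in libraries 3 and 6 of that group, and Prdm16 is at 2.39 to 3.15 FPKM in all 3 of its libraries.

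**Figure D2:**
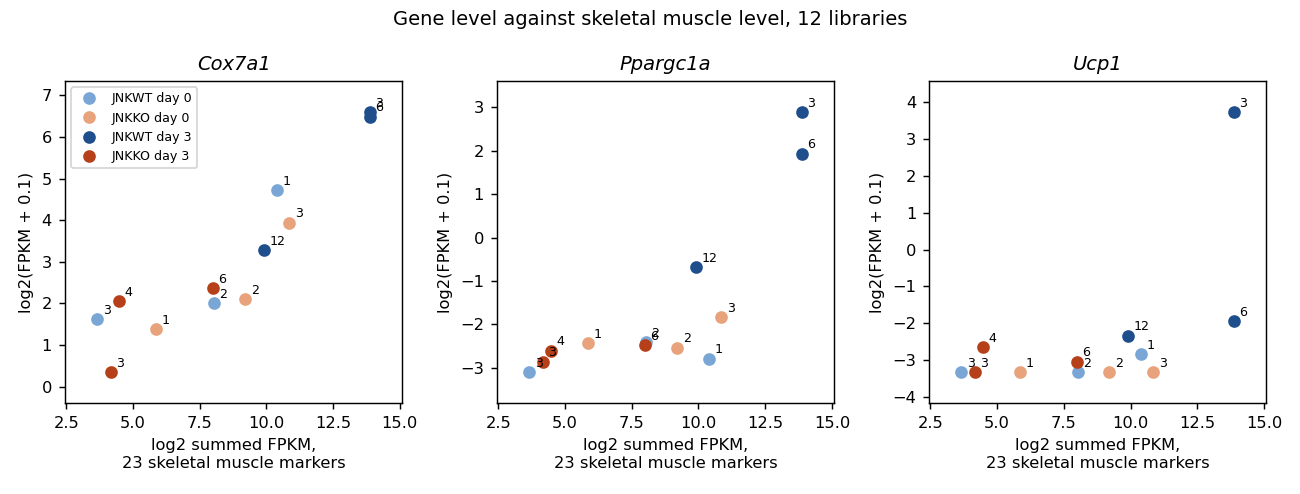
Cox7a1, Ppargc1a and Ucp1 as log2(FPKM + 0.1) against the log2 of the summed FPKM of 23 skeletal muscle markers, 1 point a library, coloured by group and numbered. JNKWT day 3 libraries 3 and 6 have close muscle sums at the right edge, where Cox7a1 is at 96.5 and 89.4 FPKM but Ucp1 at 13.1 and 0.160 FPKM.

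Dio2, the deiodinase that converts thyroxine into the active hormone triiodothyronine, was above its day 0 range in both genotypes. Its model lies at chr12:90724554-90750693 and shares part of that span with a predicted gene. JNKWT day 3 libraries 3, 6 and 12 held 2.90, 0.846 and 1.42 FPKM, and the JNKKO day 3 libraries held 0.872, 0.433 and 0.751 FPKM. On day 0 it was at 0.0311, 0.0783 and 0.0402 FPKM in JNKWT and at 0.0616, 0.0539 and 0.0516 FPKM in JNKKO glands. All 6 libraries of day 3 were above all 6 of day 0, while the genotypes overlapped on day 3 through JNKWT library 6. Dio2 reached the 0.5 FPKM of the filter on day 3 only, so it had to be higher there. Day 3 minus day 0 was 3.45 ± 0.42 in JNKWT and 2.29 ± 0.42 in JNKKO glands on the log2 scale, and JNKKO minus JNKWT on day 3 was -1.10 ± 0.42. Leaving out JNKWT day 3 library 3 moved the latter to -0.66, and leaving out any other library kept it between -1.49 and -0.84. It was the only member tested whose day 3 minus day 0 difference exceeded that of the median gene in both genotypes, by 1.09 and 0.61.

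Elovl3, the elongase of saturated very long chain fatty acids in brown fat, had the lowest mean over the 12 libraries, although Ucp1 was at 0 in more of them. Its model shares the locus chr19:46131897-46148375 with Pitx3 on the opposite strand. JNKWT day 3 libraries 3, 6 and 12 held 0.572, 0.129 and 0.109 FPKM, and the JNKKO day 3 libraries 0.0339, 0 and 0.0962 FPKM. On day 0 JNKWT library 2 held 0.0151 FPKM, JNKKO library 2 held 0.0672 FPKM, and the other 4 libraries were listed at 0. The values of day 3 were thus separate between the genotypes by 0.109 against 0.0962 FPKM only. Elovl3 passed 0.5 FPKM in library 3 alone and was not tested. Pitx3 was listed at 0.900, 0.944 and 0 FPKM in the same JNKWT day 3 libraries, and whether the libraries keep strand is not given in the sources used here, so reads of the pair cannot be told apart.

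Across the set, JNKWT day 3 libraries were all above JNKWT day 0 libraries for 5 of 6 members, with Cox7a1 as the exception, against 90.6% of all genes tested, and none was all below (1.23% of all genes). JNKKO day 3 libraries were all above JNKKO day 0 libraries for 2 of 6, Prdm16 and Dio2, against 84.0% of all genes, and all below for 0 (1.76%). On day 3 JNKKO libraries were all below JNKWT libraries for 5 of 6, with Dio2 as the exception, against 43.9% of all genes, and all above for 0 (2.81%). On day 0 the genotypes overlapped for all 6, against 4.05% of all genes with all JNKKO libraries above and 3.84% with all below. By the threshold used for other genes (limma, adjusted p under 0.05), the 4 tested members counted 4 higher on day 3 in JNKWT glands (91.5% of all genes), 2 higher in JNKKO glands (80.0%), 0 in either direction between genotypes on day 0 (0.00689% each) and 3 lower in JNKKO glands on day 3 (5.62%). The genes were chosen on these contrasts, so nothing is read from these counts. With median ratio scaling, which brings the median gene close to no change, the counts were 3 (19.1%), 0 (11.3%), 0 (0.00689% each) and 0 (0.117% lower, 0.338% higher). Under that scaling Prdm16 in JNKKO glands turned from 1.18 to -0.27.

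Adipocyte markers were called higher on day 3 for 14 of 14 in each genotype (91.5% and 80.0% of all genes), and with median ratio scaling for 10 in JNKWT and 0 in JNKKO glands (19.1% and 11.3%). The genotype difference in their change was called for 0 of 14. Each member was set against them within its library, which needs no scaling between libraries. The log2(FPKM + 0.1) of the gene minus the mean of the 14 markers was -5.26 ± 0.83 (SD, n = 3) in JNKWT and -5.27 ± 0.78 in JNKKO glands on day 3 for Prdm16. For Dio2 it was -6.03 ± 0.65 in JNKWT and -5.47 ± 1.06 in JNKKO glands. Relative to the adipocyte markers of the same libraries, the genotype difference in both genes was thus smaller than the spread between libraries. Without a pseudocount, an alternative chosen after seeing the data, the day 3 means were -5.30 and -5.44 for Prdm16 and -6.13 and -5.67 for Dio2. The day 0 values of Dio2 and Ppargc1a, the lowest of Prdm16, and those of Ppargc1a in JNKKO glands on day 3 lie near or below the pseudocount and depend on it. Day 3 minus day 0 in JNKWT glands was -0.88 for Prdm16 and -0.83 for Dio2 with the pseudocount of 0.1 and -0.13 and 0.67 without, so no direction is given for either. Ppargc1a without a pseudocount was at -4.05 and -4.12 in libraries 3 and 6 of JNKWT day 3 and at -8.18 in library 12, and at -9.53 to -8.96 in JNKKO glands of that day. Library 12 thus lay closer to the JNKKO libraries than to the other libraries of its own group. The genotype difference in Ppargc1a relative to the markers moved with the pseudocount, from -3.72 without one to -2.37 with 0.1 and -0.28 with 1. Cox7a1 in library 12 was at -3.98 without a pseudocount, within the JNKKO range of -4.08 to -2.97. Ucp1 was at -3.20 in library 3 with the pseudocount of 0.1, while the values of Ucp1 in the other libraries and those of Elovl3 are set largely by it.

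**Figure D3:**
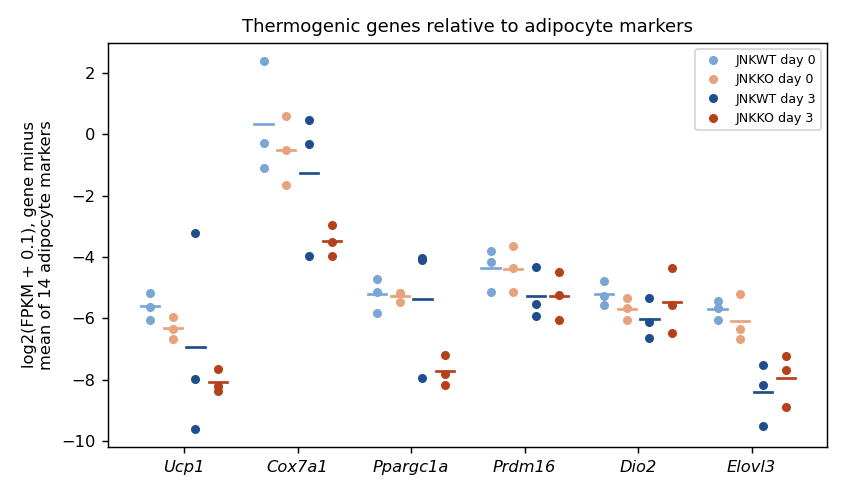
Each gene's log2(FPKM + 0.1) minus the mean of 14 adipocyte markers in the same library (vertical axis, log2 units), by gene and group, 1 point a library and the group mean as a line. Prdm16 has the same mean in JNKWT (-5.26) and JNKKO glands (-5.27) on day 3, while single JNKWT libraries stand apart for Ucp1, Cox7a1 and Ppargc1a. Values of genes near or below 0.1 FPKM are set largely by the pseudocount.

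Close relatives of the members, which are not part of the set, give a measure within each library. The uncoupling protein relatives were abundant where Ucp1 was not. Ucp2, expressed in immune and many other cells, was at 1320 to 1427 FPKM in JNKWT and 543 to 880 FPKM in JNKKO glands on day 3, so that Ucp1 was 0.990% of Ucp2 in JNKWT library 3 and at most 0.0112% in the other libraries of that day. Ucp2 rose by 4.38 ± 0.36 in JNKWT glands (limma, adjusted p = 2.2e-06) and by 3.19 ± 0.36 in JNKKO glands (adjusted p = 2.4e-05). Ucp3, known from muscle and brown fat, was higher on day 3 by 3.27 and 2.68. JNKWT libraries 3 and 6, with abundant muscle, held 83.0 and 82.4 FPKM, and library 12 held 48.2 FPKM. JNKKO libraries 3, 4 and 6 held 40.1, 96.8 and 79.3 FPKM, at muscle sums of 18.1, 22.1 and 256 FPKM. The part of muscle in the Ucp3 values was not tested.

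Cytochrome c oxidase subunits and an adenine nucleotide carrier with a muscle or brown fat form were set against their common forms. Cox7a1 was 81.5% and 53.0% of Cox7a2, the common form, in JNKWT day 3 libraries 3 and 6, 8.31% in library 12 and 1.20% to 5.77% in the JNKKO libraries. The same ratio was 42.3% in JNKKO day 0 library 3 and 22.6% in JNKWT day 0 library 1. Cox6a2 against Cox6a1, a pair whose first gene is the heart and muscle form, was at 40.6% and 40.5% in libraries 3 and 6 and at 2.68% in library 12. Cox8b against Cox8a was at 32.1%, 25.04% and 6.35%, and the adenine nucleotide carrier Slc25a4 against Slc25a5 at 296%, 292% and 72.7%. In JNKKO day 0 library 3 these ratios were 17.8% (Cox6a2), 16.7% (Cox8b) and 63.7% (Slc25a4). In JNKWT day 0 library 1 they were 6.43%, 8.15% and 36.4%. The muscle sums of these day 0 libraries, 1853 and 1341 FPKM, exceeded the 954 FPKM of library 12. Their Cox7a1, Cox6a2 and Cox8b ratios were above those of library 12 and their Slc25a4 ratios below. The part of muscle in these ratios was not tested. The FPKM of the first gene of each pair differed little between libraries 3 and 6, with a ratio of library 3 to library 6 of 1.08 for Cox7a1, 0.949 for Cox6a2, 1.24 for Cox8b and 1.11 for Slc25a4. The higher percentage of Cox7a1 in library 3 came with a lower Cox7a2, at 118 FPKM against 169 FPKM in library 6. Cox7a2 was higher on day 3 by 0.96 in JNKWT (adjusted p = 0.016) and 1.33 in JNKKO glands (adjusted p = 0.0033), both by limma, less than the median gene. Cox7a2l, which encodes a subunit of respiratory supercomplexes, rose by 2.12 ± 0.24 in JNKKO glands (limma, adjusted p = 2.3e-05).

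**Figure D4:**
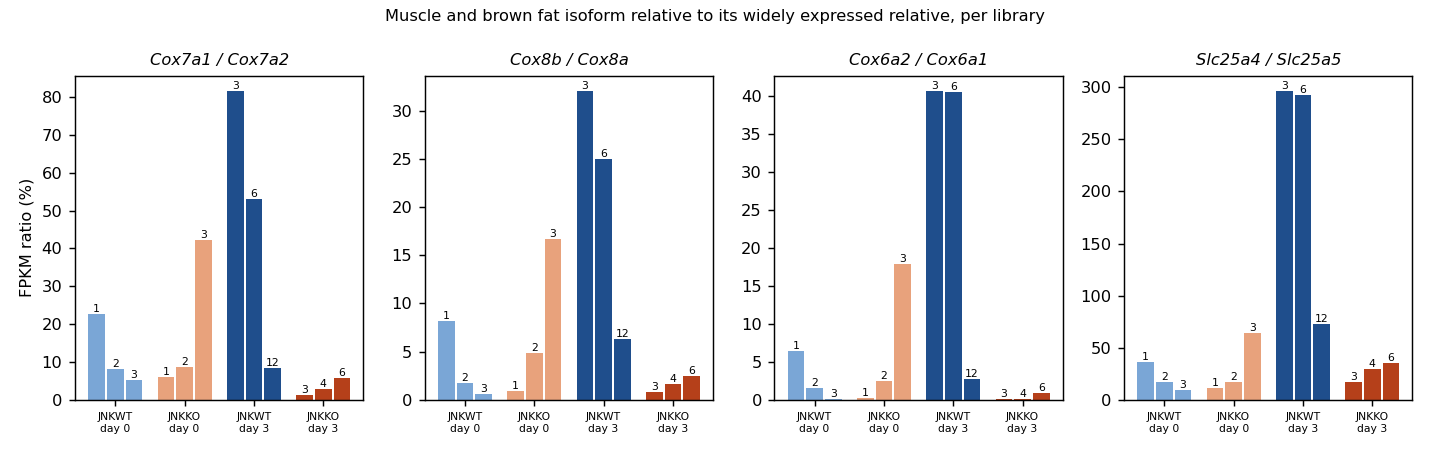
FPKM of a muscle or brown fat form as a percentage of its widely expressed relative (vertical axis, starting at 0), 1 bar a library with its number, by group, for 4 pairs. In JNKWT day 3 libraries 3 and 6 Cox6a2 reaches 40.6% and 40.5% of Cox6a1 and Cox7a1 81.5% and 53.0% of Cox7a2, which was at 118 and 169 FPKM in these libraries, while Cox7a1 itself was at 96.5 and 89.4 FPKM.

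The relatives of the regulators and enzymes had other patterns. Ppargc1b, which shares targets with Ppargc1a, was at 0.978 to 1.59 FPKM in JNKWT and 0.464 to 0.779 FPKM in JNKKO glands on day 3, so Ppargc1a stood at 461% and 380% of it in libraries 3 and 6, at 47.8% in library 12 and at 7.0% to 13.8% in JNKKO glands. Pprc1, the remaining member of that family, was at 6.07 to 9.04 and 4.84 to 6.56 FPKM. Mecom, the closest relative of Prdm16, rose by 2.30 ± 0.42 in JNKWT (limma, adjusted p = 2.5e-04) and 1.38 ± 0.42 in JNKKO glands (adjusted p = 0.010), and JNKKO minus JNKWT on day 3 was -0.89 (adjusted p = 0.21). The other deiodinases were low, with Dio1 listed at 0 in all 12 libraries and Dio3, which inactivates thyroid hormone, at 0 on day 0 and at 0.0532 to 0.434 FPKM on day 3. Among elongases, Elovl1 and Elovl5 were at 39.8 to 84.8 FPKM on day 3, far above Elovl3. Elovl5, which acts on polyunsaturated fatty acids, fell by 2.05 on the log2 scale in JNKKO glands (limma, adjusted p = 2.6e-04), and its difference in JNKWT glands was -0.69 (adjusted p = 0.076). Elovl7 rose by 0.87 ± 0.31 in JNKWT and 0.80 ± 0.31 in JNKKO glands (limma, adjusted p = 0.018 and 0.031), both turning negative, to -1.51 and -0.90, with median ratio scaling. Elovl2 stayed at or below 0.0282 FPKM. In JNKWT library 3 Elovl3 was 2.73% of Elovl6.

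Besides the members, 82 genes listed from general knowledge were tested across all genes. They include the relatives described above, such as Ucp2, Cox7a2, Mecom and the other elongases, so not all are particular to thermogenic fat. Of these, 81 had a model and 67 passed the filter, which kept Gk (under its older symbol Gyk), Cpt1b (in 1 model with Chkb) and Ndufb8 (in 1 model with Sec31b and a predicted gene). In JNKWT glands 55 were higher on day 3, 4 were lower and 8 did not pass, with a median log2 difference of 2.95, against 91.5% higher, 1.34% lower and a median of 2.37 over all genes. In JNKKO glands 41 were higher, 4 lower and 22 did not pass, with a median of 1.33 against 80.0%, 1.37% and 1.68. With median ratio scaling these counts became 21 higher and 18 lower in JNKWT glands (19.1% and 16.4% of all genes) and 7 higher and 16 lower in JNKKO glands (11.3% and 9.87%). The rise of most of the list was thus shared with most genes. The day 3 minus day 0 values of single genes below include that shift. Of the 67 genes, 36 lay above the median gene in JNKWT and 29 in JNKKO glands. Among the genes named, Ebf2, Kcnk3, Eva1a, Gdf15, Slc16a10, Adcy3 and Mecom reached 0.5 FPKM on day 3 only. They passed the filter through that day, so a rise was built in and their p-values for it are no support.

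Adrb3, the beta-3 adrenergic receptor of adipocytes, went from 0.397 to 1.08 FPKM on day 0 to 31.0, 11.97 and 45.4 FPKM on day 3 in JNKWT libraries 3, 6 and 12, a rise of 5.15 ± 0.59 (limma, adjusted p = 8.5e-06). In JNKKO glands it was at 4.42, 15.4 and 10.6 FPKM on day 3, a rise of 3.06 ± 0.59 (adjusted p = 5.8e-04). Its highest level was in library 12, which held the most adipocyte RNA and not the most Ucp1. Prkar2b, the protein kinase A regulatory subunit of fat, rose by 5.03 ± 0.54 in JNKWT glands (adjusted p = 6.3e-06). Of the 9 adrenergic input genes tested 8 rose in JNKWT and 6 in JNKKO glands, with medians of 3.49 and 1.64, against 91.5% and 80.0% of all genes and medians of 2.37 and 1.68. Of these, 5 and 0 were higher with median ratio scaling. Adcy3, an adenylyl cyclase, rose by 1.95 in JNKKO glands.

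Of 10 transcriptional regulators 9 rose in JNKWT and 5 in JNKKO glands, against 91.5% and 80.0% of all genes, and their medians of 2.17 and 1.30 lay below those of all genes. With median ratio scaling 2 were higher and 2 lower in JNKWT, and 1 higher and 3 lower in JNKKO glands. Cebpb, a partner of PRDM16 that is also an acute phase factor of involution, rose by 5.55 ± 0.51 and 5.07 ± 0.51 to 198 to 278 and 162 to 296 FPKM (adjusted p = 3.0e-06 and 1.4e-05). Ebf2, a marker of brown precursors, rose by 3.22 ± 0.45 in JNKWT glands (adjusted p = 3.3e-05) to 1.19 to 2.51 FPKM, and the nuclear receptor Esrra by 2.36 ± 0.33 in JNKKO glands (adjusted p = 8.1e-05). Of the brown and beige identity genes 4 of 9 passed the filter, and 3 of these rose in each genotype (2 with median ratio scaling), among them Slc27a1, a fatty acid transporter, by 4.91 ± 0.43 and 3.26 ± 0.43. Epsti1, which has been used as a marker of brown or beige adipocytes, rose by 3.15 ± 0.38 in JNKKO glands (limma, adjusted p = 3.0e-05). Eva1a, also counted in this list, rose by 3.42 ± 0.50 in JNKWT glands (limma, adjusted p = 4.2e-05). Eva1a is not an established marker of these cells, so nothing about their identity is read from its rise. Cited1, the remaining gene of this list that passed the filter, was not among those that rose. It was at 0.760 to 1.55 FPKM on day 0, and on day 3 at 0.921 to 1.88 FPKM in JNKWT and 0.230 to 1.09 FPKM in JNKKO glands. Zic1, a gene of the classical brown lineage, was listed at 0 in 10 libraries and was at most 0.0161 FPKM. Lhx8, also of that lineage, was at 1.17, 0.338 and 1.76 FPKM in JNKWT day 3 libraries and was not tested, and the beige markers Tmem26 and Tbx1 stayed at or below 0.198 and 0.440 FPKM.

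Mitochondrial and fatty acid genes held both directions. Cox8b rose by 4.79 ± 1.08 in JNKWT glands (limma, adjusted p = 0.0011), at 145, 117 and 37.2 FPKM in libraries 3, 6 and 12, and was at 3.23 to 10.6 FPKM in JNKKO glands on day 3 (difference from day 0 0.22, adjusted p = 0.86). Kcnk3, a potassium channel of brown adipocytes, rose by 3.91 ± 0.45 in JNKWT glands (adjusted p = 9.3e-06) and Letmd1, a mitochondrial protein of brown fat, by 2.39 ± 0.35 in JNKKO glands (adjusted p = 1.0e-04). Coq10a, a coenzyme Q binding protein, rose by 1.71 ± 0.46 in JNKKO glands (adjusted p = 0.0051) and was at -0.012 with median ratio scaling, and Acot2, a mitochondrial thioesterase, rose by 3.85 ± 0.35 and 3.00 ± 0.35. Pdk4, which spares glucose by blocking pyruvate oxidation, rose by 5.26 ± 0.68 and 4.57 ± 0.68. Cidea, a lipid droplet protein often used as a brown fat marker and also made by lactating epithelium, went the other way. It was at 505 to 672 FPKM on day 0 in both genotypes, 57.3 to 82.4 FPKM in JNKWT and 121 to 179 FPKM in JNKKO glands on day 3. It fell by 3.19 on the log2 scale in JNKWT and by 2.10 in JNKKO glands (adjusted p = 1.8e-06 and 2.5e-05). Fabp3, a fatty acid binding protein of muscle and lactating epithelium, fell by 5.54 and 5.46, and Gk, glycerol kinase, by 2.19 and 1.13.

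Secreted factors were higher on day 3 for 3 of 3 tested in JNKWT and 2 of 3 in JNKKO glands, futile cycle genes for 5 of 5 in each, and thyroid hormone genes for 4 of 5 and 3 of 5, against 91.5% and 80.0% of all genes. With median ratio scaling these counts were 1, 1 and 3 in JNKWT glands and 0 for each list in JNKKO glands. Gdf15, a stress cytokine, rose by 4.87 ± 0.65 in JNKWT and 2.42 ± 0.65 in JNKKO glands, and Nrg4, a growth factor secreted by brown fat, by 3.22 ± 0.46 and 1.11 ± 0.46 (adjusted p = 3.8e-05 and 0.040), the latter turning to -0.56 with median ratio scaling. Among the futile cycle genes Ckb, a creatine kinase, rose by 3.20 in JNKWT glands, Atp2a2, a calcium pump, by 3.32 and 2.18, and Alpl, the phosphatase of the creatine cycle, by 2.65 in JNKKO glands. The thyroid hormone transporter gene Slc16a10 rose by 4.26 in JNKWT glands, and the receptor Thra by 2.25 ± 0.34 in JNKKO glands (adjusted p = 1.2e-04). Thrsp, a thyroid hormone responsive gene of lipogenic tissues, fell by 0.89 on the log2 scale in JNKWT glands (adjusted p = 0.0084). Fgf21 and Bmp8b, both factors linked to brown fat, were at most 0.111 and 0.0107 FPKM.

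On day 0 a genotype difference was called for 0 of the 67 genes at an adjusted p under 0.05 (limma), with 2 genes at an unadjusted p under 0.05. Among the most abundant of them, the day 0 difference (JNKKO minus JNKWT) was 0.57 ± 0.39 for Prkaca, the catalytic subunit of protein kinase A, 0.46 ± 0.53 for Slc6a8, the creatine transporter, and 0.23 ± 0.47 for Vegfa, an angiogenic factor. Leaving out JNKWT day 0 library 1 turned the sign of each, and leaving out any other library kept each positive. The ranges were -0.0034 to 0.93, -0.30 to 0.96 and -0.28 to 0.51. JNKWT day 0 library 1 is the library with the lowest value for 55.6% of genes. On day 3, 1 gene was higher and 13 were lower in JNKKO glands, against 0.544% and 5.62% of all genes, with a list median of -0.72 against -0.48. The gene that was higher was Cidea, by 1.05 ± 0.24 (adjusted p = 0.030). Among those that were lower, Cox6a2 and Sln, the latter encoding the calcium pump regulator sarcolipin, are known from muscle, with differences of -6.72 ± 1.65 and -4.55 ± 1.04 (adjusted p = 0.035 and 0.030). Slc25a4, an adenine nucleotide carrier of muscle and brown fat, differed by -2.82 ± 0.67. Others are known from adipocytes or many tissues, such as Prkar2b at -2.67 ± 0.54 (adjusted p = 0.023), Kcnk3 at -2.12 ± 0.45 (0.024), Nrg4 at -1.74 ± 0.46 (0.045), Plin5, a lipid droplet protein, at -1.76 ± 0.47 (0.048), the fatty acid sensor Ppara at -2.44 ± 0.66 (0.048), Gdf15 at -2.48 ± 0.65 (0.043), Thra at -1.39 ± 0.34 (0.034), Slc16a10 at -1.72 ± 0.42 (0.034), the elongase Elovl4 at -1.35 ± 0.36 and Acaa2, an enzyme of fatty acid oxidation, at -1.19. In JNKWT day 3 libraries 3, 6 and 12 Plin5 was at 2.47, 1.46 and 0.725 FPKM and Ppara at 2.25, 1.30 and 0.736 FPKM. Both were thus higher in the libraries with abundant muscle, while library 12 was not the lowest for the others of this group of genes. The part of muscle in these differences was not tested. Elovl4 reached 0.5 FPKM in the JNKWT day 3 libraries alone, so it passed the filter only through them and had to differ there. Plin5, Kcnk3, Gdf15 and Slc16a10 reached it in fewer than 3 libraries outside JNKWT day 3, so they too passed only through that group. The p-values of all these genes for the genotype difference are therefore no support.

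These 13 calls depended on scale and on single libraries. Median ratio scaling and a common total of the libraries each left 0 lower and 0 higher of the 67 (23 at an unadjusted p under 0.05 with median ratio scaling). Leaving out JNKWT day 3 library 3 or JNKKO day 3 library 3 left 0 lower, JNKKO day 3 library 4 left 1, JNKWT day 3 library 6 left 2, JNKWT day 3 library 12 left 5, JNKKO day 0 library 2 left 6 and JNKWT day 0 library 3 left 8, while leaving out JNKWT day 0 library 1 gave 24. Without both muscle-rich libraries 0 were called in either direction. Of the 14 adipocyte markers 5 were lower as well, with a median of -1.72, and their part in these differences was not tested. The genotype difference in the change from day 0 to day 3 was called for 0 of the 67 genes in either direction (0.00689% of all genes in each), with 31 at an unadjusted p under 0.05, so that a different response of the genotypes was not shown for any of them.

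**Figure D5:**
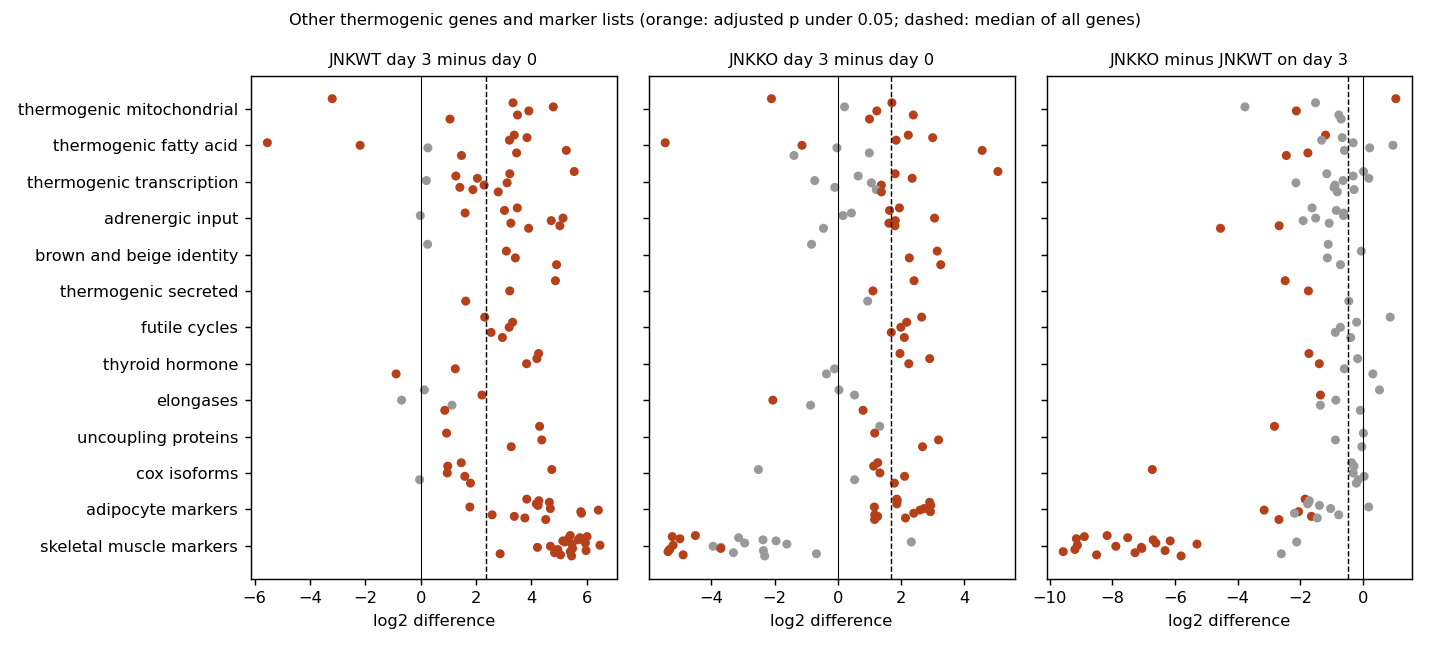
Log2 differences of the tested genes of each list (1 point a gene, horizontal axis) in JNKWT and JNKKO glands from day 0 to day 3 and between genotypes on day 3, coloured orange at a limma adjusted p under 0.05, with the median of all 14512 genes as a dashed line. Most thermogenic lists scatter around the dashed line, the adipocyte markers lie at a median of 4.26 in JNKWT glands, and the skeletal muscle markers at -7.17 between genotypes on day 3.

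Likeness over the 12 libraries was described by Pearson's r between deviations from the group means, among 11679 genes with a mean of at least 1 FPKM. Cox7a1 was closest to Mreg (r = 0.989), Smarcd3 (0.985) and Hspb2 (0.979), of which Smarcd3, a chromatin remodelling subunit, and Hspb2, a small heat shock protein, are known from heart and skeletal muscle. Ppargc1a was closest to Gm4691 (0.959), Ugp2 (0.927) and Vdac3 (0.927), Prdm16 to Cstf1 (0.960), Dusp18 (0.960) and Slc43a2 (0.946), and Ucp1, whose deviation rests on 1 library, to Gm25732 (0.955), Gm23368 (0.791) and Eif4e (0.722). Dio2 and Elovl3 were both closest to 2 short predicted genes, Gm11034 (0.846 and 0.834) and Gm23566 (0.837 and 0.843). The points of each correlation share libraries and their composition.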

How the data were processed

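Total RNA of whole glands was sequenced from 12 libraries in 4 groups of 3, grouped by the labels. The deposited values are FPKM per gene model and library, which the authors computed with Cufflinks 2.2.1 after trimming (Trimmomatic) and alignment to GRCm38 (Bowtie2 and TopHat2 2.0.14). Every per-sample column was matched to a group, and 2 of 37756 models held no value. The table also held the authors' own comparison of JNKWT day 0 with day 3 (fold changes and p and q values), which was not used. Read depth is unknown, since FPKM hold no counts, and no counting intervals are given.

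Log2(FPKM + 0.1) was fitted with limma 3.58.1 (trended variance, 1 fit of the 4 group means, two-sided) in R 4.3.3 for the 14512 models with at least 0.5 FPKM in at least 3 libraries, with Benjamini-Hochberg adjustment over all of them and a threshold of 0.05. The fit was tested on simulated data. An exact permutation test of 3 against 3 libraries cannot go below p = 0.1 and was not used. Nothing says that libraries came from separate cohorts, so p-values measure the spread between these libraries only. The members and gene lists were chosen with earlier results of these data known, and the calls of the members are given as a description, not as a test. Named from the lists, per comparison and list, were up to 2 genes a direction with the largest called differences, or the 2 most abundant where none was called, and the relatives of the members, and 1 gene this rule names is not reported here. The full set of 13 genes called lower on day 3, Cited1 and some low or absent markers (Zic1, Lhx8, Tmem26, Tbx1, Fgf21, Bmp8b) were named after their values were seen. Promoter sequences came from RefSeq (GRCm38.p6). Alternatives changed the pseudocount, filter, scaling, groups fitted and libraries included.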

Additional observations from a re-analysis of the deposited data

How the results depend on the processing

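Of the 67 listed genes tested besides the members, 55 were higher and 4 lower on day 3 in JNKWT glands, 41 and 4 in JNKKO glands, and 1 and 13 between genotypes on day 3. Median ratio scaling gave 21 and 18, 7 and 16, and 0 and 0. A common total of the libraries without milk genes and antigen receptor segments gave 23 and 11, 9 and 7, and 0 and 0. A pseudocount of 1 gave 22 lower on day 3 between genotypes and 3 lower for the genotype difference in change (otherwise 0), and a pseudocount of 0.01 gave 1 lower on day 3. Without the 2 muscle-rich JNKWT day 3 libraries, chosen after seeing the data and with the remaining library assumed to vary like the other groups, 0 were called in either direction on day 3. Other filters and fits of the compared groups alone left each count within 1.5 times. Leaving out 1 library at a time gave 50 to 55 higher and 4 to 5 lower in JNKWT glands, 36 to 44 and 4 to 5 in JNKKO glands, 0 to 2 and 0 to 24 on day 3, and 0 to 1 lower for the difference in change.

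With median ratio scaling the day 3 minus day 0 difference turned to -1.51 for Elovl7 and -0.71 for Cox8a in JNKWT glands, and to -0.90 for Elovl7, -0.012 for Coq10a and -0.56 for Nrg4 in JNKKO glands. With the common total it was -0.97 for Elovl7 and -0.14 for Cox8a in JNKWT, and -0.53 for Elovl7 and -0.20 for Nrg4 in JNKKO glands. Relative to the adipocyte markers, day 3 minus day 0 in JNKWT glands was -0.88 for Prdm16 and -0.83 for Dio2. It was -1.76 and -1.70 against the median of the markers and -2.20 and -2.54 with a pseudocount of 1. Without a pseudocount, an alternative chosen after seeing the data, it was -0.13 and 0.67. Beyond the scaling and the libraries left out, the cause was not tested. No paired analysis was possible because the column numbers of the table do not carry the replicate numbers of the labels. Depth is unknown, so values near 0 FPKM cannot be given a detection limit.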
